A study of Mus musculus with 8 samples.

Results

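The interleukin and interleukin receptor genes described here are 41 named genes, of 14971 in the table, whose symbol begins with Il and a digit. Those named for IL-1, IL-10, IL-18, IL-33 and IL-34 are left out, while the IL-20 and IL-22 branch, related to IL-10, is kept. The 41 genes comprise 13 ligand genes, 26 receptor chains, the secreted IL-22 decoy receptor Il22ra2 and Il4i1, an amino acid oxidase named for its induction by IL-4. RefSeq lists 59 protein-coding mouse genes that fit the same rule, and the other genes are not analysed here. The samples were colonic lamina propria macrophages, sorted as MHCII+CD64+ and by staining for GPR35, a G protein-coupled receptor, into a GPR35-positive and a GPR35-negative population. Each of 4 male mice gave both populations, so that 4 libraries stood in each group. The labels name no strain, age, treatment or genetic change. Expression was measured by low-input RNA sequencing as read counts per gene, and a level is given on the counts-per-million (CPM) scale after TMM scaling of the library sizes.

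Interleukins are secreted messengers that bind receptors built from several chains, one of which is often shared between cytokines. The common gamma chain (Il2rg) serves the receptors for IL-2, IL-4, IL-7, IL-9, IL-15 and IL-21, gp130 (Il6st) those for the IL-6 family, and the p40 subunit (Il12b) is part of both IL-12 and IL-23. Most of these receptors signal through Janus kinases and STAT factors, while the IL-17 receptors use the adaptor Act1. In the gut, macrophages are known as producers of IL-23 and as targets of IL-4, IL-13 and IL-6, whereas lymphocytes make most IL-4, IL-5 and IL-22.

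Library totals were 33769639 to 48599893 counts in the GPR35-positive and 15996622 to 30066596 in the GPR35-negative group. Gpr35 itself was at 73.3 ± 14.9 CPM in GPR35-positive and 2.96 ± 1.46 CPM in GPR35-negative libraries (SD, n = 4), in the direction of the labels. All 20 macrophage identity genes had counts in every library, but their summed level was 45000 to 52900 CPM in GPR35-positive and 4830 to 23400 CPM in GPR35-negative libraries. The most abundant of them were Lyz2 and C1qb. B and plasma cell genes (14, led by Jchain and Xbp1) summed to 1390 to 2830 CPM in GPR35-positive and to 73700 to 144000 CPM in GPR35-negative libraries. The latter libraries therefore held more counts of this list than of the macrophage list, against the label of the sort. Most of that sum was Jchain, at 67700, 134000, 100000 and 93800 CPM in GPR35-negative replicates 1 to 4. Whether the order of the lists holds without Jchain was not tested. T and innate lymphoid cell genes (18, led by Cd28 and Cd2) summed to 23.4 to 49.1 against 369 to 640 CPM, and 15 stromal and endothelial genes (led by Gsn and Col3a1) to 1010 to 2160 against 5360 to 10700 CPM. Epithelial genes (13, led by Lypd8 and Epcam) stood at 122 to 212 against 265 to 795 CPM. The sum of the 12 granulocyte and mast cell genes (130 to 180 against 121 to 239 CPM) overlapped, but its leading genes went opposite ways. Csf3r was at 127 ± 25.0 against 24.2 ± 23.1 CPM and was the only 1 of the 9 tested genes of the list called higher. That call ended without replicate 2 or 4 (highest edgeR adjusted p = 0.0676). It also ended with libraries scaled to the macrophage identity genes (0.65, edgeR adjusted p = 0.203). The eosinophil gene Prg2 was at 1.35 ± 0.549 against 101 ± 53.9 CPM and lower, as was Cpa3. The other 6 tested genes of the list were not called. Ccr3 and Siglecf were not among the called genes, and Epx had no row in the counts. Mcpt4 was at 0 in every GPR35-positive library. The sum of the 10 conventional dendritic cell genes (147 to 302 against 155 to 534 CPM, led by Cd24a and Ccr7) overlapped too, with Cd24a lower and Batf3 and Dpp4 higher. Its ratio of summed means was -0.35 on the log2 scale, while the median fold change of its genes was 1.39. Without replicate 2 Cd24a was not called (edgeR adjusted p = 0.0527). In bulk libraries such as these, fewer cells of a type and less RNA per cell cannot be told apart.

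**Figure D1:**
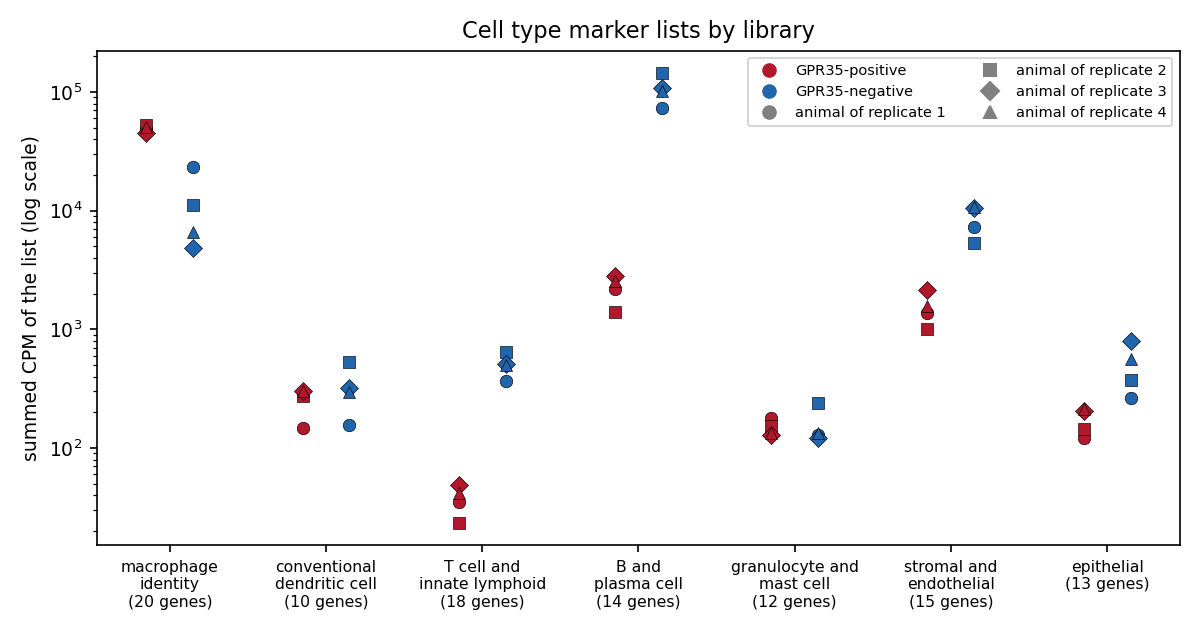
Summed CPM (log scale) of each cell type marker list in each of the 8 libraries; colour gives the sorted population and the symbol the animal. Macrophage identity genes lie at 45000 CPM or more in GPR35-positive and at 23400 CPM or less in GPR35-negative libraries, while plasma cell, T cell and stromal lists lie higher in the GPR35-negative ones.

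Of the 41 genes, 38 passed the count filter, and 17 of these (44.7%) passed the edgeR threshold of an adjusted p of 0.05, beside 38.0% of all genes tested. Higher in GPR35-positive cells were 8 (21.1%, against 18.5% of all genes) and lower were 9 (23.7%, against 19.5%). These shares are near those of all genes, so what follows describes single genes rather than the set. The 8 were the cytokine subunits Il12b and Il23a, the receptor chains Il4ra, Il13ra1, Il6ra, Il21r and Il17ra, and Il4i1. The 9 were the cytokine genes Il12a, Il4 and Il22 and the receptor chains Il2rg, Il2rb, Il9r, Il5ra, Il17rb and Il20rb. In 20 of the 38 genes (52.6%), beside 42.1% of all genes, the groups did not overlap, with GPR35-positive cells above in 7 and below in 13 (21.5% and 20.6% of all genes). The median log2 fold change was -0.31, and -0.05 over all genes tested.

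Without the animal of replicate 4, 8 of the calls were left (5 higher, 3 lower). The share of all genes called was not taken for the fits with an animal or a library left out. Il12b, Il4ra, Il13ra1, Il6ra, Il17ra, Il2rb and Il9r kept their call whichever animal or library was left out. When each library was scaled to the macrophage identity genes instead, the median of all genes moved from -0.05 to -2.44, and 29 interleukin genes passed, beside 83.6% of all genes, with 1 higher and 28 lower (0.642% and 82.9% of all genes). With that scaling and the animal as a block 28 passed, beside 75.4% of all genes, with 1 higher and 27 lower (0.79% and 74.6% of all genes). The gene that stayed higher in both was Il12b. With TMM and the block 15 passed, beside 39.4% of all genes. Scaled to library totals only, 7 were higher and 13 lower, beside 12.0% and 29.5% of all genes.

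**Figure D2:**
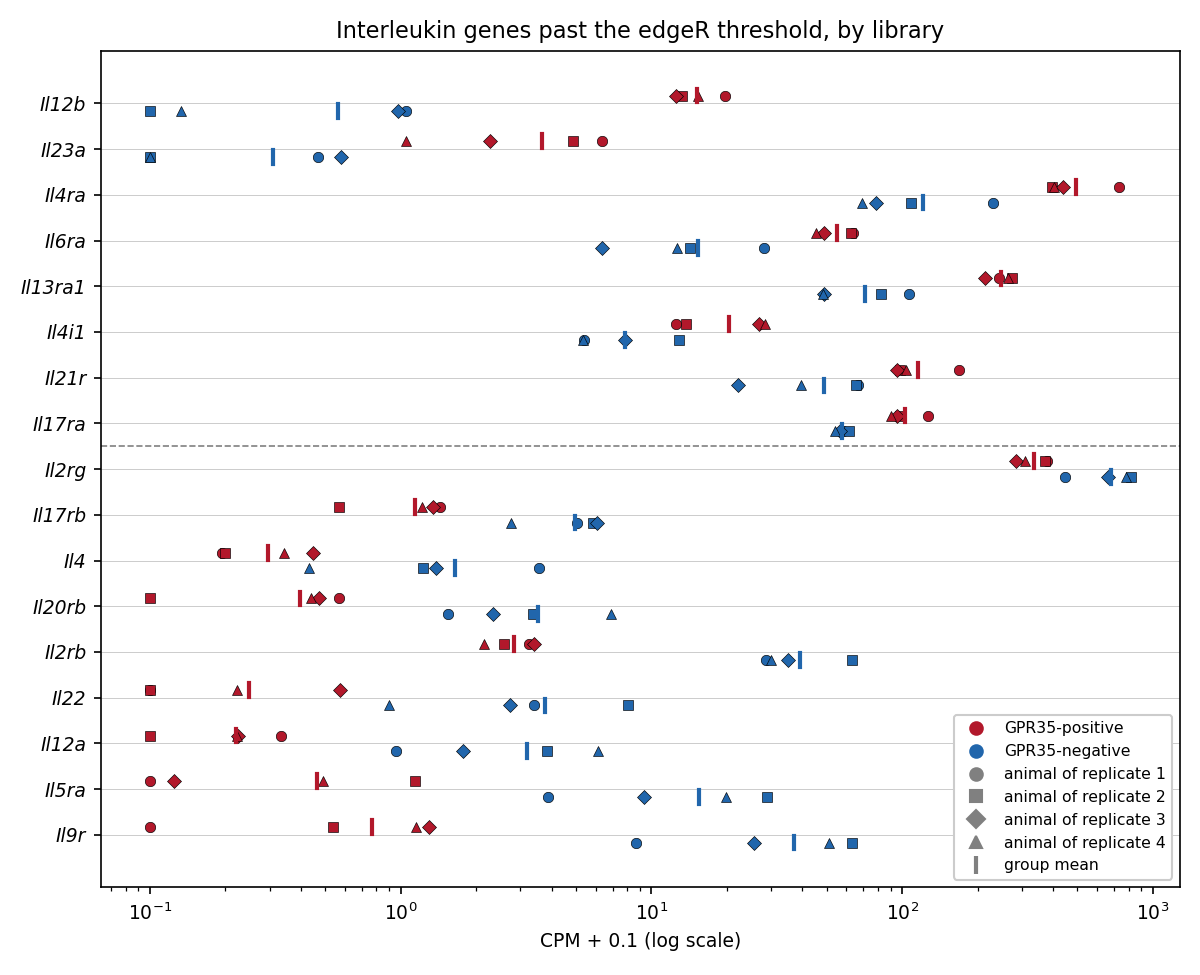
Level of each of the 17 genes past the threshold in every library, as CPM + 0.1 on a log scale, with vertical bars at the group means; genes above the dashed line were higher and those below it lower in GPR35-positive cells. All 4 GPR35-positive libraries lie apart from all 4 GPR35-negative ones for each gene shown except Il4i1 and Il4.

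Among the IL-12 family, the subunit genes of IL-23 rose and the gene for the IL-12-specific subunit fell. Il12b (chromosome 11, 44400063 to 44414677 in GRCm38.p6), which encodes the p40 subunit, stood at 19.5, 13.2, 12.4 and 15.2 CPM in GPR35-positive replicates 1 to 4. In GPR35-negative libraries it stood at 0.947, 0, 0.879 and 0.0332 CPM. The count of 0 came from the smallest library and allows a level of up to 0.178 CPM, a limit that covers counting error only. Every GPR35-positive library was thus above 12 CPM and every GPR35-negative one below 1 CPM. On the log2 scale Il12b was 4.96 ± 0.98 higher (SE; edgeR adjusted p = 0.00463). Scaled to macrophage identity genes it was 2.74 higher (adjusted p = 0.0195).

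Il23a (chromosome 10, 128296140 to 128298084), which encodes the p19 subunit that pairs with p40 in IL-23, was at 6.27, 4.78, 2.17 and 0.951 CPM in GPR35-positive libraries. In GPR35-negative libraries it was at 0.367, 0, 0.479 and 0 CPM. The groups did not overlap, but the GPR35-positive values spread more, for their mean, than those of Il12b. It was higher by 4.01 ± 1.26 (edgeR adjusted p = 0.0342). Of the 12 fits that left out an animal or a library, 8 lost that call (highest adjusted p = 0.113); it held without replicate 4 of the GPR35-positive or replicate 1, 3 or 4 of the GPR35-negative libraries. Neither limma voom (adjusted p = 0.204) nor identity scaling (1.70, adjusted p = 0.239) made it.

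Il12a (chromosome 3, 68690644 to 68698550), which encodes the p35 subunit that pairs with p40 in IL-12, was at 0.233, 0, 0.125 and 0.122 CPM in GPR35-positive libraries. In GPR35-negative libraries it was at 0.855, 3.74, 1.68 and 6.05 CPM, above all of the former. It was lower (-4.61 ± 1.05, edgeR adjusted p = 0.00895), but not with replicate 4 left out (adjusted p = 0.0706). In GPR35-positive libraries p40 reads were therefore accompanied by p19 reads in all 4 animals and by at most 0.233 CPM of p35. Il27, which encodes the p28 subunit of IL-27, was at 1.61 to 4.11 against 0 to 2.73 CPM and did not pass (1.28 ± 1.19, edgeR adjusted p = 0.418).

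The receptors of this family did not pass. Il12rb1, the chain shared by the IL-12 and IL-23 receptors, was at 1.98 ± 1.66 against 3.80 ± 1.75 CPM (edgeR adjusted p = 0.335). Il12rb2, the second chain of the IL-12 receptor, was at 0.0933, 0.736, 2.02 and 3.34 CPM in GPR35-positive and at 0 to 0.28 CPM in GPR35-negative libraries (3.58 ± 1.31, edgeR adjusted p = 0.0581). Its call differed by tool, with an adjusted p of 0.0142 in DESeq2. The chain specific to the IL-23 receptor, Il23r, lies 46.6 kb from Il12rb2 on chromosome 6; it was not tested, at 0 to 0.349 and 0 to 7.37 CPM. The IL-27 receptor chain Il27ra was at 6.59 ± 1.73 against 12.2 ± 7.30 CPM (edgeR adjusted p = 0.170).

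Both chains of the type II IL-4 receptor, which binds IL-4 and IL-13, were higher in GPR35-positive cells. Il4ra (chromosome 7, 125552271 to 125579474), the IL-4 binding chain, was at 734, 396, 438 and 402 CPM in GPR35-positive libraries. In GPR35-negative libraries it was at 230, 108, 78.3 and 69 CPM. Replicate 1 was the highest in each group and the groups did not overlap (2.02 ± 0.41, edgeR adjusted p = 0.00524). Il13ra1 (chromosome X, 36112108 to 36171262), the IL-13 binding chain, was at 243, 274, 214 and 265 CPM against 106, 82.3, 48.6 and 48.1 CPM. It was higher by 1.80 ± 0.27 (edgeR adjusted p = 0.00132), with differences of 1.19 to 2.46 within the 4 animals. For Il4ra, Il13ra1 and Il6ra alike, GPR35-negative replicate 1 was the highest of its group, as it was for the macrophage identity list. With identity scaling their log2 fold changes were -0.00188, -0.33 and -0.14, none past the threshold (adjusted p = 0.997, 0.496 and 0.791).

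Other chains of the common gamma chain family went both ways. Il2rg (chromosome X, 101264385 to 101268255), the common gamma chain, was at 379, 372, 284 and 310 CPM in GPR35-positive and 448, 816, 664 and 785 CPM in GPR35-negative libraries. It had the highest level per kilobase of all 41 genes in both groups, and the groups did not overlap. Il2rg was lower (-1.01 ± 0.21, edgeR adjusted p = 0.00560), though not with replicate 4 left out (adjusted p = 0.0515). Il21r (chromosome 7, 125603252 to 125634397), the IL-21 receptor, begins 23.8 kb beyond Il4ra. It was at 168, 98.0, 95.5 and 104 CPM against 66.8, 65.6, 22.1 and 39.4 CPM. All GPR35-positive libraries were above all GPR35-negative ones, and the difference was 1.26 ± 0.35 (edgeR adjusted p = 0.0214). Leaving out replicate 4 (adjusted p = 0.0957), GPR35-positive replicate 1 (0.0609) or GPR35-negative replicate 4 (0.0557) ended the call of Il21r.

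Il2rb (chromosome 15, 78479256 to 78511621), the signalling chain of the IL-2 and IL-15 receptors of T and NK cells, had the smallest p of the 38 tested genes. It was at 3.15, 2.48, 3.30 and 2.05 CPM in GPR35-positive libraries, against 28.5, 63.3, 35.0 and 29.8 CPM. Every GPR35-negative library lay far above every GPR35-positive one (-3.83 ± 0.33, edgeR adjusted p = 1.07e-04). Il9r (chromosome 11, 32187544 to 32205283), the IL-9 receptor, had the most negative log2 fold change of the 38 tested genes; with the animal as a block and with limma voom that of Il5ra was more negative. It was at 0, 0.435, 1.20 and 1.05 CPM in GPR35-positive and 8.59, 62.9, 25.6 and 51.2 CPM in GPR35-negative libraries. For Il9r, GPR35-negative replicate 1 was the lowest of its group. The same held for Jchain, Prg2 (43.2 against 81.0 to 171 CPM), Il2rb, Il2rg and the summed T cell, epithelial and dendritic cell lists. That rank was thus shared by genes of several cell types, and its cause was not tested. Csf3r was highest there (57.6 against 8.39 to 21.6 CPM). Il9r fell by 5.78 ± 1.03 on the log2 scale (edgeR adjusted p = 0.00310). Il2rb is itself a T and NK cell marker and was kept out of that list. Of the 18 T and innate lymphoid cell genes tested 14 were lower, as were 12 of the 13 tested for B and plasma cells, and their part in these results was not tested.

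Of the remaining members of the family, Il4 passed. Il7r, the IL-7 receptor, was at 27.3 to 34.9 CPM in GPR35-positive libraries, and at 7.73, 38.1, 10.9 and 11.5 CPM in GPR35-negative ones. It did not pass (0.86 ± 0.46, edgeR adjusted p = 0.171), but passed with the animal as a block (1.16, adjusted p = 0.0403) and without replicate 2. It passed with limma voom too (adjusted p = 0.00979). Il15, which encodes a cytokine that supports NK and T cells, and its receptor Il15ra did not pass (0.33 ± 0.23 and -0.21 ± 0.29, edgeR adjusted p = 0.278 and 0.586). The high-affinity IL-2 receptor chain Il2ra was at 0.468 to 3.15 against 3.59 to 5.91 CPM, which do not overlap. It did not pass (-1.48 ± 0.65, edgeR adjusted p = 0.101), but did with DESeq2 (adjusted p = 0.0453). Il7 did not pass (adjusted p = 0.106 in edgeR), but did with DESeq2 (adjusted p = 0.0432). Il2, at no more than 1.43 CPM in any library, was not tested. The T helper cytokine gene Il4 was at 0.0933 to 0.349 against 0.332 to 3.45 CPM. It passed (-2.95 ± 0.90, edgeR adjusted p = 0.0304), but not with the animal as a block (adjusted p = 0.107), nor in 9 of the 12 fits with an animal or a library left out; it held without replicate 3 of the GPR35-positive or replicate 2 or 4 of the GPR35-negative libraries.

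In the common beta chain family, Il5ra (chromosome 6, 106710375 to 106749037), the IL-5 receptor of eosinophils and B cells, was lower in GPR35-positive cells. It was at 0, 1.04, 0.0250 and 0.390 CPM in these and at 3.76, 28.9, 9.27 and 19.7 CPM in GPR35-negative libraries. GPR35-negative replicate 1 was again the lowest of its group. Il5ra was lower (-5.44 ± 1.27, edgeR adjusted p = 0.00978), though not with replicate 4 left out (adjusted p = 0.0657). Il5, which lies 102 kb from Il4 on chromosome 11, was at 0 to 0.674 against 0.879 to 2.56 CPM and did not pass (-2.97 ± 1.19, edgeR adjusted p = 0.0780). With DESeq2 it passed (adjusted p = 0.0227). The IL-3 receptor chain Il3ra did not pass either (-0.36 ± 0.29, edgeR adjusted p = 0.353).

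In the IL-6 family, the ligand-binding chain was higher and the shared signalling chain did not pass. Il6ra (chromosome 3, 89869324 to 89913196) was at 63.9, 62.2, 48.8 and 45.4 CPM in GPR35-positive libraries, and at 28.0, 14.1, 6.23 and 12.6 CPM in GPR35-negative ones. All of the former lay above all of the latter (1.85 ± 0.40, edgeR adjusted p = 0.00697). Il6st, which encodes gp130, was at 116, 77.4, 122 and 101 CPM against 102, 63.3, 232 and 99.0 CPM. The groups overlapped, with GPR35-negative replicate 3 highest (-0.25 ± 0.36, edgeR adjusted p = 0.610). Il6 was at 1.10 to 5.89 against 0.733 to 4.12 CPM (-0.0278 ± 0.68, edgeR adjusted p = 0.978). The IL-11 receptor genes Il11ra1 and Il11ra2 are near-identical copies that counting can split, and neither passed (0.16 ± 0.17 and 0.34 ± 0.24, edgeR adjusted p = 0.483 and 0.289).

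The promoters of Il12b, which stayed higher under both scalings, of Il6ra, which was higher under TMM, and of Il5ra, which was lower, are printed as examples of genes that moved in opposite directions. Each is the 250 bases before the gene's start in RefSeq (GRCm38.p6), and capitals mark every match, on either strand, to the PU.1 core GAGGAA, the GATA motif AGATAA, the AP-1 motif TGANTCA or the STAT motif TTCNNNGAA; an interferon regulatory factor motif was searched too, without a match in these 3 windows. The Il12b window is chr11:44399813-44400062 (plus strand), with 2 PU.1 core matches, the Il6ra window chr3:89913197-89913446 (minus strand), and the Il5ra window chr6:106749038-106749287 (minus strand).
Il12b: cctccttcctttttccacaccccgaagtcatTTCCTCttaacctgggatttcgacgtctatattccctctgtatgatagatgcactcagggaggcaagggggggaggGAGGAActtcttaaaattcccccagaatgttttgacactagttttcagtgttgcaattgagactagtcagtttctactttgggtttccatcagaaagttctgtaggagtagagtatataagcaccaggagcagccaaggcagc
Il6ra: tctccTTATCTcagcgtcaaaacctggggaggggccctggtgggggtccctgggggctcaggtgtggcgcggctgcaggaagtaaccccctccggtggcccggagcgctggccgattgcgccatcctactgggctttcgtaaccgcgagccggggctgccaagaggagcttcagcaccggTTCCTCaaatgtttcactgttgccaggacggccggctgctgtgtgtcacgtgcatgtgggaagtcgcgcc
Il5ra: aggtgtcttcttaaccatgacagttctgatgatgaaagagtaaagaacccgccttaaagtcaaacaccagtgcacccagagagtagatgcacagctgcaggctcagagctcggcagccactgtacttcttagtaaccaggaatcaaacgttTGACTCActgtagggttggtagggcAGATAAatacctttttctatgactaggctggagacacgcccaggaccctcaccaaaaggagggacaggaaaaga
Promoters were listed for 32 of the 41 genes, in 38 windows. The PU.1 core was in 13 of these, and in 23.3% of all 32851 windows, the GATA motif in 6 and 9.99%, and the AP-1 motif in 6 and 6.75%. The STAT motif was in 2 and 7.02%, and the interferon regulatory factor motif in 1 and 2.98%. A match is a string of letters and was not tested for binding.

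In the IL-17 family, Il17ra (chromosome 6, 120463181 to 120483731), the chain common to IL-17 receptors, was higher in GPR35-positive cells. It was at 127, 98.1, 95.6 and 89.8 CPM, against 58.1, 61.3, 56.6 and 53.7 CPM in GPR35-negative libraries. The difference was small and even across animals, at 0.68 to 1.13 on the log2 scale (0.84 ± 0.13, edgeR adjusted p = 0.00182). With identity scaling its direction turned (-1.53, adjusted p = 0.00698). Il17rb (chromosome 14, 29996168 to 30008896), the IL-25 receptor chain, was at 1.33, 0.468, 1.25 and 1.12 CPM against 4.95, 5.76, 5.99 and 2.66 CPM, without overlap. It was lower (-2.21 ± 0.50, edgeR adjusted p = 0.00880), except with replicate 3 left out (adjusted p = 0.0573). Il17rc, which pairs with Il17ra to bind IL-17A, did not pass (-0.70 ± 0.34, edgeR adjusted p = 0.129), but did with limma voom (adjusted p = 0.0454). Il17rd, Il17re and the ligand Il17d each stood below 1 CPM in every GPR35-positive library and below every GPR35-negative value, and did not pass (edgeR adjusted p = 0.0560, 0.0534 and 0.0605). They passed with DESeq2 and with limma voom.

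Among genes of the IL-20 and IL-22 branch, Il22, the cytokine of innate lymphoid and T cells that acts on epithelium, was at 0, 0, 0.474 and 0.122 CPM in GPR35-positive libraries. In GPR35-negative libraries it was at 3.30, 7.96, 2.64 and 0.798 CPM. It was lower (-4.57 ± 1.39, edgeR adjusted p = 0.0301), but not with the animal as a block (adjusted p = 0.0603) nor in 7 of the 12 fits with an animal or a library left out, those without replicate 1, 2 or 4, without the GPR35-positive library of any of these, and without GPR35-negative replicate 2. Il20rb, a receptor chain for IL-19, IL-20 and IL-24, was at 0 to 0.467 against 1.44 to 6.78 CPM. It was lower (-3.51 ± 1.01, edgeR adjusted p = 0.0243), but not with the block (adjusted p = 0.0564) nor in 6 of the 12 fits, those without replicate 3 or 4, with GPR35-positive replicate 1, 3 or 4 left out, or GPR35-negative replicate 4. Il22ra2, a soluble receptor that binds and blocks IL-22, was at 1.07, 1.37, 4.24 and 4.58 CPM against 3.45, 0, 0.679 and 0 CPM. It was higher in 3 of 4 animals and did not pass (1.43 ± 1.43, edgeR adjusted p = 0.456). Il22ra1, at no more than 1.25 CPM, was not tested.

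Il16, a chemoattractant that binds CD4, was at 214 to 241 against 145 to 226 CPM, higher in all 4 animals, and did not pass (0.30 ± 0.15, edgeR adjusted p = 0.145). With limma voom Il16 passed (0.39, adjusted p = 0.0360), as did Il15 (0.60, adjusted p = 0.0489). Il4i1 was at 12.4, 13.7, 26.8 and 28.2 CPM against 5.29, 12.8, 7.75 and 5.25 CPM. It passed (1.39 ± 0.40, edgeR adjusted p = 0.0239), with a small overlap between the groups. Its gene span overlaps those of Il4i1b and Tbc1d17, so its reads may be shared with theirs. The spans of Il27, Il27ra, Il11ra1 and Il12rb2 likewise overlap other genes of the table (Apobr, Palm3, Ccl27a and Serbp1). The call of Il4i1 ended in 6 of the 12 fits, those without replicate 3 or 4 (adjusted p up to 0.140) and without either library of these animals, and with library totals only.

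**Figure D3:**
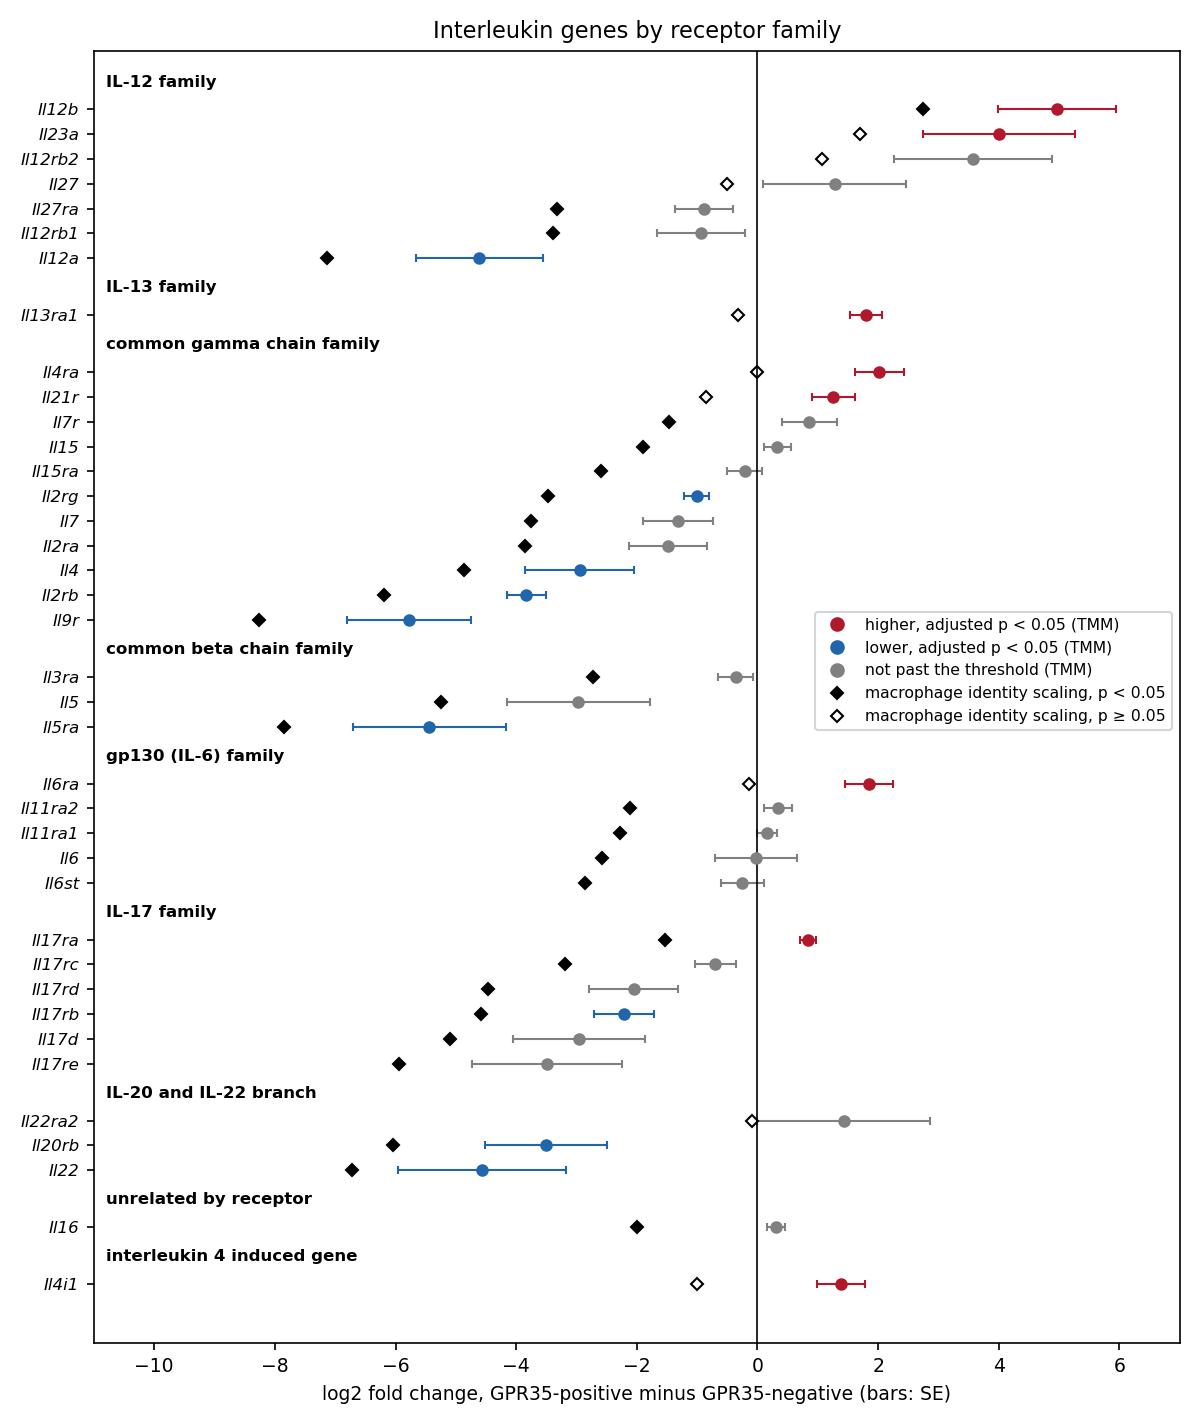
Log2 fold changes (GPR35-positive minus GPR35-negative) of the 38 tested genes by receptor family: circles with SE bars from the TMM-scaled edgeR fit, diamonds from the same test with libraries scaled to macrophage identity genes (filled where the adjusted p is below 0.05). The diamonds lie to the left of the circles throughout, and Il12b alone has a filled diamond above 0.

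The order of levels was compared per kilobase of the deposited gene length, whose definition is not given, so that each level and rank holds only for those lengths. In GPR35-positive libraries Il2rg came first (202 CPM per kilobase), followed by Il4ra (96.7), Il13ra1 (67.0), Il16 (45.3), Il21r (44.6) and Il17ra (25.9). The ranges of the first 3 did not overlap each other, and those of Il16 and Il21r did. Il6st, Il11ra1, Il15 and Il6ra formed a level stretch of overlapping ranges (19.1, 18.4, 17.8 and 16.3 CPM per kilobase). Among the ligand genes, Il16 and Il15 were thus the highest, with Il12b at 6.01, Il27 at 3.90, Il23a at 2.61 and Il6 at 2.55 CPM per kilobase. In GPR35-negative libraries Il2rg (408) was followed by Il16 (36.7), Il4ra (23.8) and Il6st (22.7), and Il2rb (14.5) and Il9r (12.0) stood near Il17ra (14.5).

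**Figure D4:**
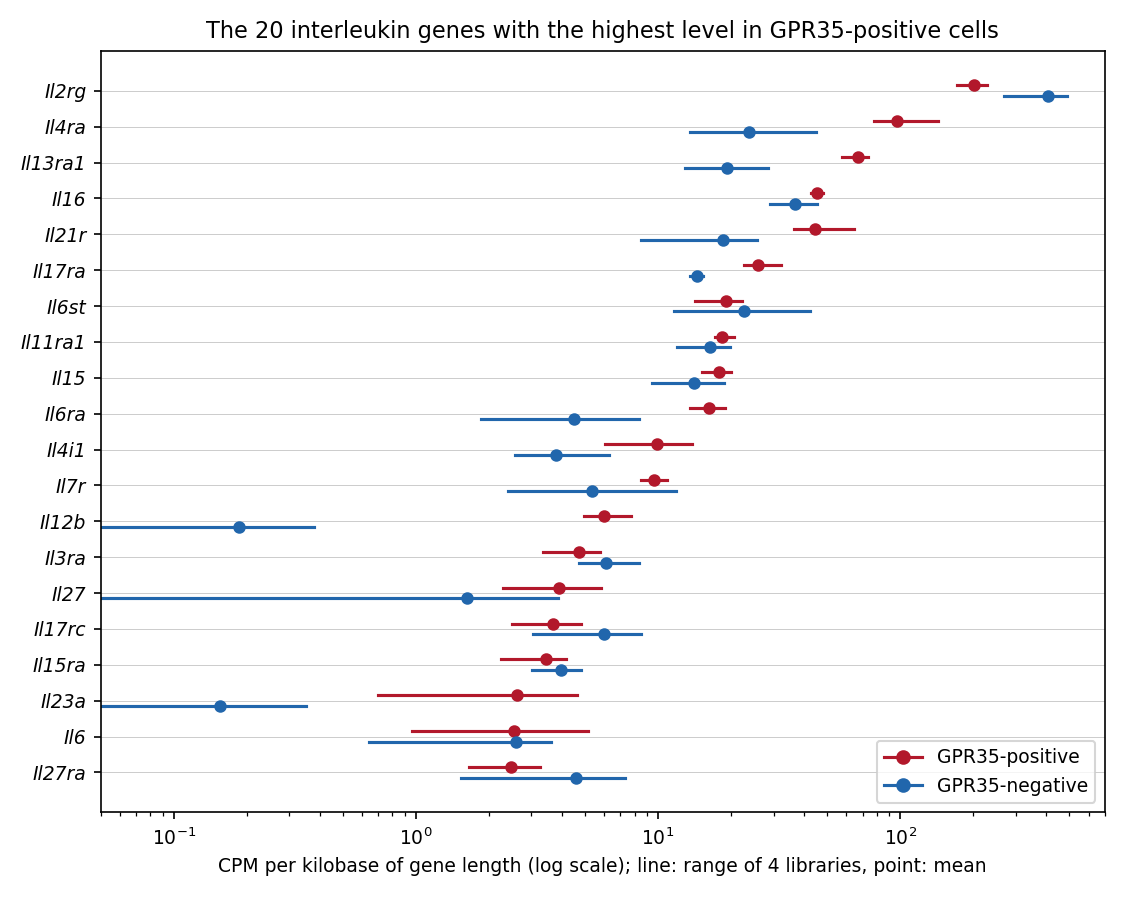
CPM per kilobase of gene length (log scale) of the 20 genes with the highest level in GPR35-positive libraries; points are means and lines the range of 4 libraries, and a line that reaches the left edge includes a library at or near 0. Il2rg is highest in both groups, at 202 and 408 CPM per kilobase.

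Pathway genes around these receptors were taken from 4 lists written from textbook knowledge. The lists hold receptor-proximal signalling genes, but also partner chains, cytokines, response genes and inducers. They were chosen with earlier results of these data known, so their counts are description only. In them 39 of 79 tested genes were higher and 10 lower in GPR35-positive cells, with a median log2 fold change of 0.75. Over all genes tested these shares were 18.5% and 19.5%. With identity scaling 4 were higher and 51 lower, beside 0.642% and 82.9% of all genes. Of 26 genes of JAK-STAT and receptor-proximal signalling, 11 were higher and 2 lower. Those with the smallest p were the cytokine signalling suppressor Socs2 (-2.15 ± 0.23, edgeR adjusted p = 2.64e-04), Traf3ip2, which encodes Act1 (-3.03 ± 0.32, adjusted p = 2.68e-04), the phosphatase gene Ptpn6 (1.22 ± 0.14, adjusted p = 4.05e-04) and the STAT3 target Socs3 (1.86 ± 0.28, adjusted p = 0.00146). Traf3ip2, the adaptor of the IL-17 receptors, was at 2.51 to 5.41 against 22.6 to 45.4 CPM, opposite in direction to Il17ra under TMM. With identity scaling both genes were lower (-5.46 and -1.53, edgeR adjusted p = 7.07e-08 and 0.00698).

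Of 18 tested partner chains and related cytokines, 8 were higher and 4 lower. The common beta chain Csf2rb and its mouse-specific copy Csf2rb2, near-identical genes that counting can split, were higher (2.49 ± 0.27 and 2.93 ± 0.31, edgeR adjusted p = 2.92e-04 and 2.93e-04). Among those that were higher was Ebi3, the partner of p28 in IL-27. The prolactin receptor Prlr and the growth hormone receptor Ghr, which belong to the same receptor class, were lower (-5.71 ± 0.77 and -2.88 ± 0.41, edgeR adjusted p = 8.82e-04 and 0.00111). Of 19 genes of the IL-4, IL-13 and STAT6 response, 10 were higher and 2 lower. Among them were the lectin Cd209a (4.70 ± 0.67, edgeR adjusted p = 0.00108) and the transcription factors Batf3, also on the dendritic cell list (2.40 ± 0.42, adjusted p = 0.00267) and Klf4 (0.83 ± 0.15, adjusted p = 0.00279), and, in the other direction, the PD-1 ligand Pdcd1lg2 (-1.97 ± 0.38, adjusted p = 0.00405). Cd209a was at 29.0 CPM in GPR35-positive replicate 1 and at 239 to 257 CPM in the others of its group.

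Of 16 genes of IL-12 and IL-23 induction and response, 10 were higher and 2 lower. The transcription factors Irf8 and Irf5, known as activators of Il12b, were at 534 to 636 against 94.8 to 194 CPM and at 420 to 515 against 87.6 to 201 CPM. They were higher by 2.04 ± 0.24 and 1.74 ± 0.25 (edgeR adjusted p = 4.68e-04 and 0.00123). Both chains of the interferon gamma receptor were higher (Ifngr1 1.46 ± 0.21 and Ifngr2 1.70 ± 0.22, edgeR adjusted p = 0.00112 and 7.94e-04), and the 2 that were lower were Ifng and Tbx21, a cytokine and a transcription factor of T and NK cells. With identity scaling Irf8, Irf5, Ifngr1, Ifngr2, Socs3, Ptpn6 and Klf4 turned negative. Of these only Ptpn6 and Klf4 passed the threshold as lower (edgeR adjusted p = 0.0402 and 0.00629). Cd209a stayed higher (2.14, adjusted p = 0.0152). Csf2rb (0.30), Csf2rb2 (0.69) and Batf3 (0.40) kept their sign but not their call (edgeR adjusted p = 0.545, 0.207 and 0.495).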

How the data were processed

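The deposited values are raw read counts per gene in 8 libraries, 1 table with 14980 rows. Per the labels' protocols, RNA from sorted cells was amplified with SMART-Seq v4 and made into libraries with Nextera XT, a chemistry without strand marks or molecular identifiers, so reads of overlapping genes cannot be separated and counting limits cover counting error only. Per the submitters' processing notes, the tools were STAR 2.5.2a and R 3.4.2, with the build mm10. Which read counter and gene annotation they used was not given in the sources available here. The authors' gene length column (other values in the table, in bases, per the file headers) served only for levels per kilobase.

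Counts were tested over all genes with edgeR 4.0.16 (R 4.3.3): 9 rows without a symbol (0.0179% of counts) were left out, filterByExpr (minimum count 10, total 15) kept 14184 genes, TMM scaled the libraries, and groups were compared by a robust quasi-likelihood F-test, p-values adjusted after Benjamini and Hochberg, threshold 0.05. SE is the size of the log2 fold change divided by the root of the F statistic. Log2 CPM used a prior count of 2. In simulated counts for this comparison, 200 genes were changed 4-fold in either direction, with no other group difference, and 13959 genes were tested. Of the changed genes tested 56.9% were recovered, and 5.1% of calls were false. In the data 38.0% of genes were called, so these rates need not hold there. Alternatives were RLE, library-total and macrophage identity scaling, other filters, DESeq2 1.42.0, limma 3.58.1 voom, the animal as a block, and leaving out each animal or library. Coordinates come from RefSeq GRCm38.p6, matched by Entrez ID for all 41 genes.

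Each animal number in the labels belongs to 1 library of either population, so replicate numbers pair the libraries. After subtraction of the group means, the 2 libraries of an animal correlated across genes at 0.206, 0.206, 0.431 and 0.0637 in replicates 1 to 4. The highest correlation with a library of another animal was 0.104, 0.0911, 0.172 and 0.237, so that of replicate 4 exceeded its own; the pairing rests on the labels. No pair of replicates agreed within sampling noise (smallest chi-square per degree of freedom 26.6). Full statistics were given for every interleukin gene past the threshold, for Il6, Il6st and Il7r, and for up to 4 called genes of each pathway list with the smallest p. Each marker list is named by its 2 most abundant genes, and Gpr35 and Jchain served as checks. The genes and lists were chosen with earlier results of these data known. Analyses used Python 3.11.15.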

Additional observations from a re-analysis of the deposited data

Results flagged for a closer look

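In 82 groups of 4 libraries (41 genes in each population), 3 held a library whose gap to the nearest other library exceeded the 95% limit for 4 values; chance gives about 1 in 20. Il4ra stood at 734 CPM in GPR35-positive replicate 1, against 396 to 438 CPM in the other GPR35-positive libraries. Il21r, its neighbour on chromosome 7, stood at 168 CPM in the same library, against 95.5 to 104 CPM. Il7r stood at 38.1 CPM in GPR35-negative replicate 2, against 7.73 to 11.5 CPM in the other GPR35-negative libraries. Without GPR35-positive replicate 1 the call of Il4ra held and that of Il21r did not (edgeR adjusted p = 0.0609).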

How the results depend on the processing

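The 17 calls among the interleukin genes were all kept with RLE scaling, with no count filter and with DESeq2, which added 7. Those added were Il12rb2, Il17d, Il17rd, Il17re, Il2ra, Il5 and Il7. Limma voom lost Il23a and added Il15, Il16, Il17d, Il17rc, Il17rd, Il17re and Il7r. With the replicate block 14 of the 17 were kept, and Il4 (-2.67), Il20rb (-3.64) and Il22 (-5.01) lost their call, while Il7r (1.16) gained one; it changed no other call among the 38 genes or the other genes named. With identity scaling 29 were past the threshold (1 higher, 28 lower), with the block added 28 (1 and 27), and with at least 5 CPM in 4 libraries, which left 20 genes to test, 10 (7 and 3, beside 21.5% and 23.7% of all genes). DESeq2 called 9 higher and 15 lower (21.0% and 25.4% of all genes), and limma voom 10 and 13 (21.7% and 23.2%). Leaving out an animal or a library gave 8 to 17 calls, 5 to 8 of them higher and 3 to 10 lower, with the fewest without replicate 4, where 8 calls (5 higher, 3 lower) were left. With 3 animals fewer samples were compared, and the pathway genes called fell too, from 49 to 33 without replicate 4. The share of all genes was not taken for these fits. Pathway genes called higher and lower numbered 4 and 51 with identity scaling, beside 0.642% and 82.9% of all genes. With the block added they numbered 4 and 45, beside 0.79% and 74.6% of all genes. The log2 ratio of the summed stromal and endothelial markers was -2.47 with TMM and -2.76 with library totals.

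Signs turned with identity scaling, without and with the block, for Il4ra (-0.00188, -0.032), Il13ra1 (-0.33, -0.29), Il6ra (-0.14, -0.13), Il17ra (-1.53, -1.37), Il21r (-0.85, -0.83), Il4i1 (-1.0, -0.79), Il7r (-1.46, -1.08), Il15 (-1.9, -1.8), Il16 (-1.99, -1.86), Il11ra1 (-2.28, -1.99) and Il11ra2 (-2.12, -1.79). The same held for Socs3 (-0.33, -0.3), Ptpn6 (-1.08, -0.95), Klf4 (-1.56, -1.35), Irf8 (-0.13, -0.07), Irf5 (-0.41, -0.36), Ifngr1 (-0.74, -0.67) and Ifngr2 (-0.5, -0.44). Il27 (-0.51) and Il22ra2 (-0.09) turned without the block only. Of the genes whose sign turned, Il17ra, Il15, Il16, Il11ra1, Il11ra2 and Klf4 passed the threshold as lower in both fits. Il7r and Ptpn6 did so only without the block, and the rest were not called in either. Identity scaling lowers all genes together (median -2.44). With library totals Il11ra1 stood at -0.14. Leaving out an animal or a library moved Il6 between -0.62 and 0.25, Il6st between -0.41 and 0.24 and Ccr7 between -1.32 and 0.29; none was called in any of these fits, and the cause was not tested. Counts of 0 in the smallest library allow a level of up to 0.178 CPM, which limits the genes with libraries at 0.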
